A study of Mus musculus with 8 samples.

Results

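Skeletal muscle transcripts were examined tumor by tumor in bulk RNA-seq of 8 MC38 tumors, for a set of 45 genes of striated muscle. The set held 40 genes of the contractile filaments, the Z-disc, calcium handling, muscle metabolism and the myogenic program, together with Xirp1, Xirp2, Rrad, Alpk2 and Asb5. All 45 were present among the 24421 genes of the raw count table, and 41 passed the filter on low counts that left 14468 genes for testing. The genes were listed with earlier results of these same tumors known, and Xirp1, Rrad, Alpk2 and Asb5 were of interest because they differed between the groups. Their group differences are therefore given as descriptions. The questions were whether these 4 genes followed the sarcomere genes from tumor to tumor or stood apart from them, and whether fast and slow fiber genes behaved alike.

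MC38 is a mouse colon adenocarcinoma line, here grown under the skin of female B6 Kaede mice that were 9 weeks old when they received 250000 cells. Kaede is a fluorescent protein that turns from green to red under violet light, and mice of both groups carried it. On day 10, the tumors of 4 mice were exposed to 405 nm light for 3 min (photoconverted tumors), and the tumors of another 4 mice received no light (control tumors). Every tumor was collected 5 h after the light exposure, and RNA of the whole tumor was sequenced.

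Skeletal muscle contracts through sarcomeres, in which myosin thick filaments pull on actin thin filaments that are anchored at the Z-disc. Calcium released from the sarcoplasmic reticulum binds troponin and starts contraction, and a calcium pump ends it. Fast and slow fibers use different genes for the same parts, so that each type has its own myosin heavy chains, light chains and troponins. Xirp1 and Xirp2 encode actin-binding Xin repeat proteins of striated muscle, Rrad a small GTPase of the RGK family that inhibits voltage-gated calcium channels, Alpk2 an alpha-kinase, and Asb5 an ankyrin repeat protein with a SOCS box. Xirp1 and Rrad are both known to be expressed at higher levels in injured muscle.

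Total counts per tumor were between 12576615 and 35844417. The ribosomal precursor Rn45s took 2.70 to 35.7% of them, with over 10% in photoconverted tumor 4 (21.9%), control tumor 2 (35.7%) and control tumor 4 (23.2%). Both tumors numbered 4 also had the lowest mean level of the sarcomere genes, though not of slow genes such as Tnnt1, so several results are given again for the 5 tumors with a lower Rn45s share. Muscle transcripts were a small part of each library: 24 sarcomere genes took 0.0312 to 0.287% of all counts other than Rn45s. In RNA from whole tumors, fewer cells of a type and less RNA per cell cannot be told apart.

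Genes of the thin filament were led by Acta1, the skeletal muscle actin, which had the highest level per kb of exon of the 45 genes (mean of 97.9 CPM, that is counts scaled to the library total after TMM normalization, per kb over 8 tumors). Acta1 measured 130.6, 205, 429 and 62.3 CPM across photoconverted tumors 1 to 4, against 79.8, 104.9, 127 and 63.7 CPM across control tumors 1 to 4. Photoconverted tumor 3 was highest and the groups overlapped, since photoconverted tumor 4 was the lowest of the 8. The means were 207 ± 159 CPM (SD, n = 4) in photoconverted and 93.9 ± 27.9 CPM (SD, n = 4) in control tumors, a log2 fold change of 1.14 (SE 0.51, edgeR adjusted p = 0.999). Without photoconverted tumor 3 the log2 fold change of Acta1 was 0.50. Tnnt3, the fast skeletal troponin T that ties the troponin complex to tropomyosin, had the smallest unadjusted p of the thin filament genes. Its levels were 30.9, 44.97, 97.5 and 8.68 CPM in photoconverted tumors against 20.6, 11.7, 25.8 and 9.40 CPM in control tumors (log2 fold change 1.42, SE 0.62, edgeR adjusted p = 0.999), and again photoconverted tumors 3 and 4 marked both ends. Leaving out photoconverted tumor 3 gave a log2 fold change of 0.74 for Tnnt3. The tropomyosins Tpm1 and Tpm2, which many cell types outside muscle also express, differed little, with log2 fold changes of 0.18 and 0.26. Over the 10 thin filament genes the median log2 fold change was 0.60.

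In the fast genes of the thick filament, photoconverted tumor 3 was again the highest of the 8. Myh4, the myosin heavy chain of the fastest (IIb) fibers, measured 113, 188, 315 and 30.6 CPM in photoconverted tumors and 81.1, 88.7, 117 and 27.2 CPM in control tumors. Myh1, the IIx heavy chain, measured 55.4, 82.5, 241 and 26.7 CPM against 47.4, 47.6, 48.6 and 25.8 CPM. Myh2, the IIa heavy chain, measured 12.9, 21.4, 56.5 and 11.1 CPM against 10.2, 10.1, 11.8 and 8.85 CPM. In all 3 genes, photoconverted tumor 3 stood far above the other photoconverted tumors, and tumor 4 of each group was the lowest of its group. Their log2 fold changes were 1.04 (SE 0.63), 1.26 (SE 0.58) and 1.32 (SE 0.48), with an edgeR adjusted p of 0.999 for each, and without photoconverted tumor 3 they were 0.49, 0.38 and 0.57. Mylpf, the fast regulatory light chain, had a log2 fold change of 1.22, and 0.44 without photoconverted tumor 3. Of the 9 thick filament genes tested, 8 had a higher fitted level in photoconverted tumors (median log2 fold change 1.22), and the exception was Myh7. Myh1, Myh2 and Myh4 lie side by side on chromosome 11 and are close in sequence, so reads could have been split between them in counting.

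At the Z-disc, the 7 genes tested had a median log2 fold change of 0.90. Actn2, an alpha-actinin that crosslinks the thin filaments there, measured 8.43, 19.5, 29.0 and 6.08 CPM in photoconverted tumors against 5.54, 6.85, 8.32 and 6.71 CPM in control tumors (log2 fold change 1.20, SE 0.45, edgeR adjusted p = 0.999). Photoconverted tumors 1, 2 and 3 were above every control tumor and photoconverted tumor 4 was below 3 of them. Actn3, the fast fiber alpha-actinin, had a log2 fold change of 0.66, Des, the muscle intermediate filament, 0.90, and Tcap, the titin cap protein, 0.28. Without photoconverted tumor 3 the log2 fold changes were 0.73 for Actn2, 0.175 for Actn3 and 0.57 for Des, and the sign for Tcap turned to -0.15.

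Of the calcium handling and metabolic genes, Atp2a1, Ckm and Mb had nearly the same order of tumors as the filaments. Casq1 and Pvalb departed more from it, with photoconverted tumor 1 below control tumors 1, 2 and 3. Atp2a1, the calcium pump of the fast fiber sarcoplasmic reticulum, measured 62.7, 128, 199.7 and 22.8 CPM in photoconverted tumors against 41.0, 66.3, 66.5 and 21.8 CPM in control tumors. Ckm, the muscle creatine kinase that buffers ATP, measured 34.1, 66.6, 127 and 12.2 CPM against 27.1, 35.9, 32.5 and 14.9 CPM. Mb, the oxygen store myoglobin, measured 3.90, 5.94, 13.6 and 0.478 CPM against 1.23, 0.963, 3.31 and 0.855 CPM. In each of these 3 genes, photoconverted tumor 4 lay within or below the range of the control tumors while photoconverted tumor 3 was highest of all. The log2 fold changes were 1.08 (SE 0.59) for Atp2a1, 1.13 (SE 0.60) for Ckm and 1.87 (SE 0.80) for Mb, each with an edgeR adjusted p of 0.999. Without photoconverted tumor 3 they were 0.55, 0.455 and 1.10. The medians were 0.93 over 5 calcium handling genes, among them the calcium buffers Casq1 (0.93) and Pvalb (0.96), and 1.24 over 4 metabolic genes, among them the muscle enolase Eno3 (0.66) and the muscle glycogen phosphorylase Pygm (1.34). Leaving out photoconverted tumor 3 gave 0.27 for Casq1, 0.20 for Pvalb, 0.22 for Eno3 and 0.71 for Pygm.

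Of the myogenic factors, Pax7 was at or near 0 in every tumor and Myod1 in most. Pax7, which marks satellite cells, had 2 counts in photoconverted tumor 3, 2 counts in control tumor 3 and none in the other tumors. Myod1, a myogenic transcription factor of activated satellite cells, had 5, 31, 32 and 1 counts in photoconverted tumors and 3, 1, 1 and 0 counts in control tumors. The counts of Myod1 were highest in photoconverted tumors 2 and 3, the tumors with the most sarcomere transcripts. Both genes stayed below the filter on low counts and were not tested, as did the slow light chains Myl2 (0 to 8 counts) and Myl3 (0 to 1 count). Myog, which drives terminal differentiation of myoblasts, had a log2 fold change of 0.55 (SE 0.61, edgeR adjusted p = 0.999), and 0.14 without photoconverted tumor 3.

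**Figure D1:**
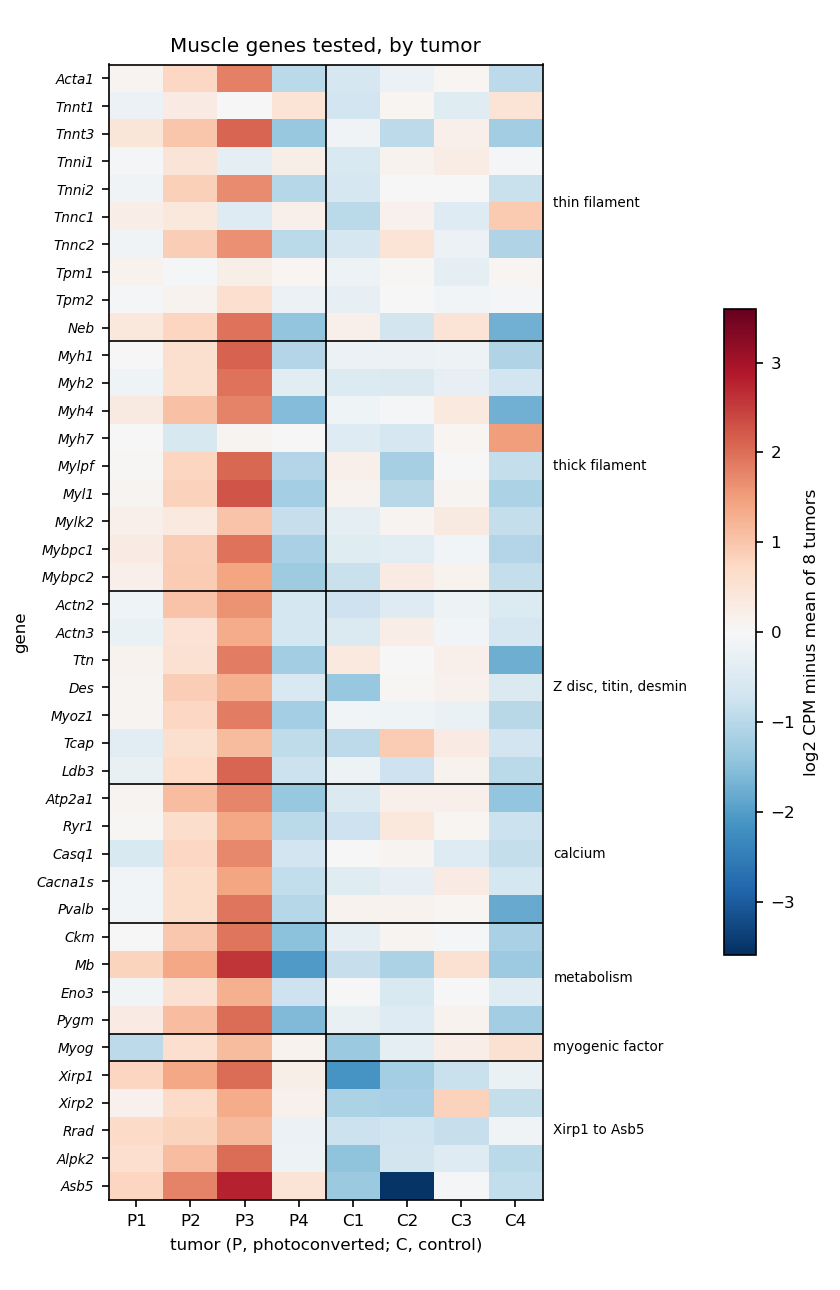
Levels of the members in each tumor, drawn as log2 CPM minus the mean of the gene over 8 tumors. Columns are photoconverted tumors 1 to 4 and control tumors 1 to 4, and rows are genes ordered by role. Photoconverted tumor 3 is the highest for most filament genes and both tumors numbered 4 are low, whereas Xirp1, Alpk2 and Asb5 are higher in all 4 photoconverted tumors than in any control tumor.

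None of the 41 tested members passed an adjusted p of 0.05 in edgeR, and none of the 14468 genes did (percent called 0). At an unadjusted p under 0.05 there were 9 members among 322 genes (2.23%). All 9 were higher in photoconverted tumors, as were 1.65% of all genes at that p. A higher fitted level in photoconverted tumors was found for 40 of 41 members, against 46.8% of all genes tested, and the median log2 fold change was 1.01, against -0.01 over all genes. These members share tumors and move together, so their number adds no independent observation. Levels did not overlap between the groups, with all photoconverted tumors higher, for 3 members (Xirp1, Alpk2 and Asb5), against 0.684% of all genes. With the replicate number as a block, 25 members had an unadjusted p under 0.05 (6.01% of all genes), and no gene passed the adjusted threshold. DESeq2's Wald test called 24 genes (0.141% of 17005), of which 4 were members, Xirp1, Rrad, Asb5 and Alpk2. In an edgeR fit of the 5 tumors with a lower Rn45s share, 42 genes were called (0.275%), and Rrad was the 1 member among them (log2 fold change 1.72). Since these genes were listed for this same contrast, the calls are given as a description of how the tools treat them.

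Xirp1 (chr9:120013755-120023598, minus strand, GRCm38) measured 12.6, 19.6, 29.9 and 8.47 CPM across photoconverted tumors 1 to 4, against 1.63, 3.10, 4.16 and 6.17 CPM across control tumors 1 to 4. The lowest photoconverted tumor was above the highest control tumor, and these were the tumors numbered 4 of each group. The means were 17.6 ± 9.36 CPM (SD, n = 4) and 3.76 ± 1.91 CPM (SD, n = 4), a log2 fold change of 2.24 (SE 0.48) or 4.72-fold. Alpk2 measured 2.18, 3.13, 5.83 and 1.23 CPM against 0.457, 0.856, 0.995 and 0.671 CPM (log2 fold change 2.08, SE 0.49). Its groups did not overlap either, although its levels rested on only 8 to 148 counts per tumor.

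Rrad (chr8:104628070-104631327, minus strand, GRCm38) measured 36.6, 39.3, 51.2 and 19.7 CPM in photoconverted tumors and 13.1, 13.7, 12.6 and 20.6 CPM in control tumors. Photoconverted tumors 1, 2 and 3 lay above every control tumor, but photoconverted tumor 4 was just below control tumor 4. The means were 36.7 ± 12.98 CPM (SD, n = 4) and 15.0 ± 3.76 CPM (SD, n = 4), a log2 fold change of 1.30 (SE 0.29).

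Asb5 (chr8:54529580-54587842, plus strand, GRCm38) had 60, 98, 160 and 18 counts in photoconverted tumors and 10, 0, 23 and 7 counts in control tumors, which is 1.501, 3.10, 6.30 and 1.23 CPM against 0.286, 0, 0.818 and 0.427 CPM. The groups did not overlap, and the log2 fold change of 2.83 (SE 0.72) rested on a control group with 1 tumor at 0. Exons of Asb5 overlap those of Spcs3 on the other strand, and the strand setting of the counting is not given in the sources used here. Tnnc2, Atp2a1, Ckm, Des, Mb, Myh7, Myl2 and Myl3 also overlap a counted gene on the other strand, so the same limit holds for them. Xirp2 (chr2:67446002-67526614, plus strand, GRCm38), the relative of Xirp1, overlapped between the groups: it measured 25.3, 36.8, 57.8 and 25.4 CPM against 10.4, 10.2, 40.5 and 12.6 CPM, with control tumor 3 above 3 of the photoconverted tumors (log2 fold change 0.97, SE 0.49). Without control tumor 3 the log2 fold change of Xirp2 was 1.72. Xirp2 was nevertheless higher in the photoconverted tumor of all 4 same-numbered pairs, and with the replicate block its log2 fold change was 1.14 (SE 0.20), while that of Xirp1 was 2.25 (SE 0.40). The difference between Xirp1 and Xirp2 was not tested. Levels per kb of exon ranked Rrad first among these 5 genes (16.4 CPM per kb over 8 tumors), then Xirp2 (2.28), Xirp1 (1.83), Asb5 (0.927) and Alpk2 (0.241). Rrad thus had a level per kb close to that of Ckm (15.0), whereas the other 4 genes were far below Acta1 and Myh4 (19.97). Among control tumors, Rrad was highest in tumor 4, where Acta1 was lowest, and which cells gave the Rrad transcripts was not tested. Over 8 tumors, Xirp2 and Xirp1 had levels per kb near that of Myh2 (2.50). In photoconverted tumors they were 3.03 and 3.02, against 3.57 for Myh2. In control tumors they were 1.54 and 0.645, against 1.43, so that Xirp1 was near Myh2 only in photoconverted tumors.

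The sequences upstream of 4 members are shown because these windows of Acta1, Myh4, Asb5 and Xirp2 hold short elements that are known from muscle promoters. A RefSeq promoter (GRCm38.p6) was matched for 34 of the 45 members, which had 43 promoter windows of 250 bases before the start. Promoters of Tnnt3, Tnni2, Neb, Mylk2, Actn3, Myoz1, Tcap, Myod1, Xirp1, Rrad and Alpk2 were not matched. Capitals mark a CArG box (the element bound by serum response factor) or a MEF2 site (the element bound by MEF2 factors of muscle), searched on both strands. The Acta1 window holds a CArG box, the Myh4 window a MEF2 site and then a CArG box, the window of Asb5 a CArG box and the window of Xirp2 a MEF2 site. Asb5 has 3 windows in the table, of which the first is shown. The second holds a MEF2 site and the third neither element, and the windows of Myh2 and Myh7 hold neither. The windows are chr8:123894776-123895025 (minus strand) for Acta1, chr11:67237562-67237811 (plus strand) for Myh4, chr8:54550081-54550330 (plus strand) for Asb5 and chr2:67445752-67446001 (plus strand) for Xirp2.
Acta1: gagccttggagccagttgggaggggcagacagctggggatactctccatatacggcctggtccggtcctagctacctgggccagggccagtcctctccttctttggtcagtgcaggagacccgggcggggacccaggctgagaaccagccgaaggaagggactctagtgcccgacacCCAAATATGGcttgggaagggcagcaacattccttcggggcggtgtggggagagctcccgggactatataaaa
Myh4: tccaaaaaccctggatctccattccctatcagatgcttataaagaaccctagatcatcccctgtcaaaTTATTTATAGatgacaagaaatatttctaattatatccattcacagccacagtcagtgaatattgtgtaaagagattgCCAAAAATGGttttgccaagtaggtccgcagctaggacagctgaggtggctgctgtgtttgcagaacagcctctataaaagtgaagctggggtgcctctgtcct
Asb5: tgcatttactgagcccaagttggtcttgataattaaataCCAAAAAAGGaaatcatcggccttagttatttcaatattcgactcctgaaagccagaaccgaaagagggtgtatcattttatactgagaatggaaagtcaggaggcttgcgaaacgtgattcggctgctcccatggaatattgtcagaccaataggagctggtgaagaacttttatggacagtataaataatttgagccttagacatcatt
Xirp2: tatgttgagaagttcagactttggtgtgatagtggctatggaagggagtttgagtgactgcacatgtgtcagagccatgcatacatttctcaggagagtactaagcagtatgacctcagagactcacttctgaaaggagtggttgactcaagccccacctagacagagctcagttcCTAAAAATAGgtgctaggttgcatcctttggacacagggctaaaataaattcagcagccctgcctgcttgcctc
A CArG box was found in 6 of the 43 member windows (14%), against 1.47% of 32851 windows of the same length over all genes, and a MEF2 site in 6 windows (14%) against 2.92%. Both windows of Ldb3 overlap and hold the same CArG box, so that these were 5 of 34 genes for the CArG box (14.7%, against 1.62% of all genes) and 6 of 34 for the MEF2 site (17.6%, against 3.42%). The E-box CANNTG, bound by myogenic factors among others, was found in 81.4% of member windows and 66.2% of all windows, and GAANNTTC, a pair of heat shock element units, in 4.65% and 6.69%. A match of letters describes the window and is not evidence of binding.

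To set single genes against the sarcomere as a whole, a sarcomere score was taken for each tumor as the mean of log2 CPM, centered per gene, over 22 tested genes of the filaments and Z-disc. The tropomyosins, Des and Mylk2, a myosin light chain kinase, were not in the score. Photoconverted tumors 1 to 4 scored 0.03, 0.66, 1.45 and -0.82, and control tumors 1 to 4 scored -0.38, -0.22, 0.00 and -0.72. Photoconverted tumors thus gave the 3 highest values and also the lowest. The means were 0.33 ± 0.96 and -0.33 ± 0.31 (SD, n = 4 each), a difference of 0.66 on the log2 scale that was smaller than the spread among photoconverted tumors. Within same-numbered pairs the photoconverted tumor minus the control tumor gave 0.41, 0.88, 1.45 and -0.10, and the fast fiber score alone was higher in all 4 pairs. With the replicate block the log2 fold change of Myh4 was 0.80 (SE 0.20), with no gene past the adjusted threshold. The difference was 0.29 without photoconverted tumor 3 and 1.04 without photoconverted tumor 4. In the 5 tumors with a lower Rn45s share, all 22 genes had a higher fitted level in photoconverted tumors (median log2 fold change 1.20), and without photoconverted tumor 3 the median over all other tumors was 0.42.

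Within photoconverted tumors, Xirp1, Rrad, Alpk2 and Asb5 each had the same order as the sarcomere score: tumor 3, then 2, 1 and 4. Within control tumors they did not. The score ran from control tumor 3 through 2 and 1 to 4, whereas Xirp1 ran from 4 through 3 and 2 to 1, and Rrad was highest in tumor 4 and lowest in tumor 3. Control tumor 4 was therefore low in sarcomere transcripts and at the same time the highest control tumor for Xirp1 and Rrad. Alpk2 and Asb5 were both highest in control tumor 3, as was the score, but then differed from it in order.

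**Figure D2:**
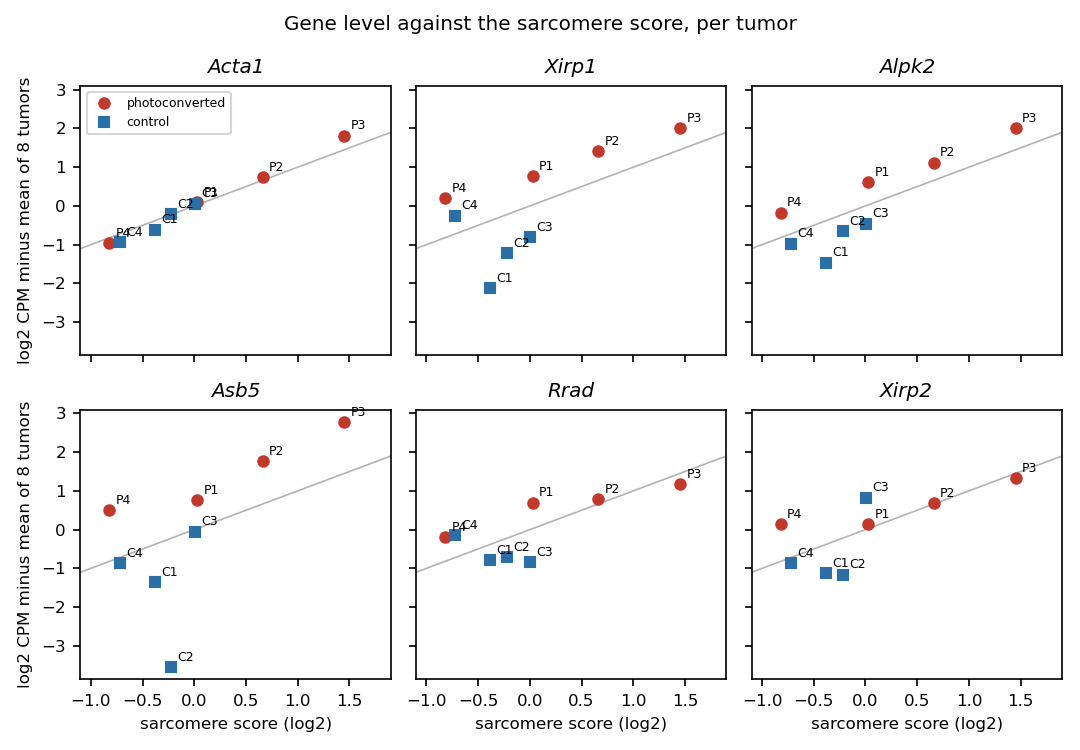
Centered log2 CPM of single genes (vertical axis) against the sarcomere score (horizontal axis, mean centered log2 CPM) in 8 tumors, with P for photoconverted, C for control and the tumor number. Acta1 lies along the score in both groups (r = 0.997), whereas the 4 photoconverted tumors lie above the control tumors at like scores for Xirp1, Alpk2 and Asb5.

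Over 8 tumors, 18 of the 22 sarcomere genes followed the score of the remaining genes with Pearson's r between 0.764 and 0.997. The coefficients describe tumors that share a library and a depth across genes. With the 2 tumors farthest from the median of the score left out (photoconverted tumors 3 and 2), these 18 genes kept values between 0.528 and 0.986. The other 4, the slow genes Tnnt1, Tnni1, Tnnc1 and Myh7, had r of -0.33 to -0.12 over 8 tumors, and without the same 2 tumors Tnnt1 had -0.73 and Myh7 -0.50. The 18 are thus the genes that followed the score, and not all sarcomere genes did so more closely than Xirp1, Rrad, Alpk2 and Asb5. Xirp1 had r = 0.685 (Spearman's rho 0.619), Rrad 0.714 (0.571), Alpk2 0.857 (0.738) and Asb5 0.657 (0.667). Without the same 2 tumors r was -0.05 for Xirp1, 0.04 for Rrad, 0.37 for Alpk2 and -0.02 for Asb5, so that the relation of Xirp1, Rrad and Asb5 with the score rested on these tumors. Among themselves, r was 0.944 between Xirp1 and Rrad, 0.942 between Xirp1 and Alpk2 and 0.909 between Rrad and Alpk2. With Asb5 it was 0.857 for Xirp1, 0.817 for Rrad and 0.826 for Alpk2. These genes were listed for differing between the same 2 groups, which by itself raises the coefficients among them, so nothing is read from their height. Xirp1 had r of 0.701 with Acta1 and 0.477 with Myh4, Rrad 0.715 and 0.534, Alpk2 0.875 and 0.722, and Asb5 0.655 and 0.496.

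Subtracting the sarcomere score from the centered log2 CPM of a gene gives its level relative to the mean sarcomere gene of the same tumor. This takes each gene to change 1 unit per unit of score. The fitted slopes were 1.256 for Acta1, 1.525 for Myh4 and 0.851 for Actn3. They were 1.262 for Xirp1, 1.325 for Alpk2, 1.717 for Asb5 and 0.756 for Rrad. Where the slope is not 1, part of the relation with the score stays in the remainder. For Xirp1 the remainder was 0.74, 0.75, 0.56 and 1.03 in photoconverted tumors and -1.74, -0.999, -0.81 and 0.47 in control tumors. The groups did not overlap, though control tumor 4 came close to photoconverted tumor 3, and the difference of means was 1.54. For Alpk2 the photoconverted tumors lay close together, at 0.56 ± 0.08, and the control tumors at -0.56 ± 0.36 (SD, n = 4 each), a difference of 1.12 without overlap. For Asb5 the means were 1.12 ± 0.28 and -1.12 ± 1.52 (SD, n = 4 each), a difference of 2.25 without overlap that was 1.51 when control tumor 2, with 0 counts, was left out. Rrad gave 0.67, 0.14, -0.27 and 0.62 against -0.40, -0.50, -0.84 and 0.59. Here the groups overlapped, since control tumor 4 lay above 2 photoconverted tumors, and the difference of means was 0.58. Within same-numbered pairs, the photoconverted tumor was higher in all 4, by 1.07, 0.63, 0.57 and 0.04. Xirp2 overlapped as well, at 0.25 ± 0.49 and -0.25 ± 0.79 (SD, n = 4 each). Of all 14468 genes, 8 (0.0553%) had every photoconverted tumor above every control tumor after this subtraction, and 3 of those were Xirp1, Alpk2 and Asb5. Before it the share was 0.684%. The score was on average higher in photoconverted tumors, so subtracting it lowers this share for genes that do not follow the score. These 3 genes were listed for differing between the groups, so the count is a description only.

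When the score was a covariate in the edgeR model, the median log2 fold change of the 22 sarcomere genes went from 1.05 to -0.09, as follows from a score made of these genes. The log2 fold change was 1.63 (SE 0.46) for Xirp1, 0.94 (SE 0.28) for Rrad, 1.24 (SE 0.30) for Alpk2 and 1.82 (SE 0.58) for Asb5. These were 72.6, 72.1, 59.5 and 64.4% of their values without the covariate. Xirp2 had 0.50 (SE 0.42). No gene passed the adjusted threshold in this model (smallest edgeR adjusted p = 0.9999), and 176 genes (1.22%) had an unadjusted p under 0.05. The score is made of the sarcomere genes, which holds the center of that set near 0 (single genes at -0.58 to 0.49). The 4 genes were listed for differing between these groups, so their contrast with the sarcomere genes is a description only. With the replicate block added to the score, the log2 fold change of Rrad was 0.44 and that of Xirp2 was 1.31, whereas Xirp1, Alpk2 and Asb5 had 1.34, 1.35 and 2.04.

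**Figure D3:**
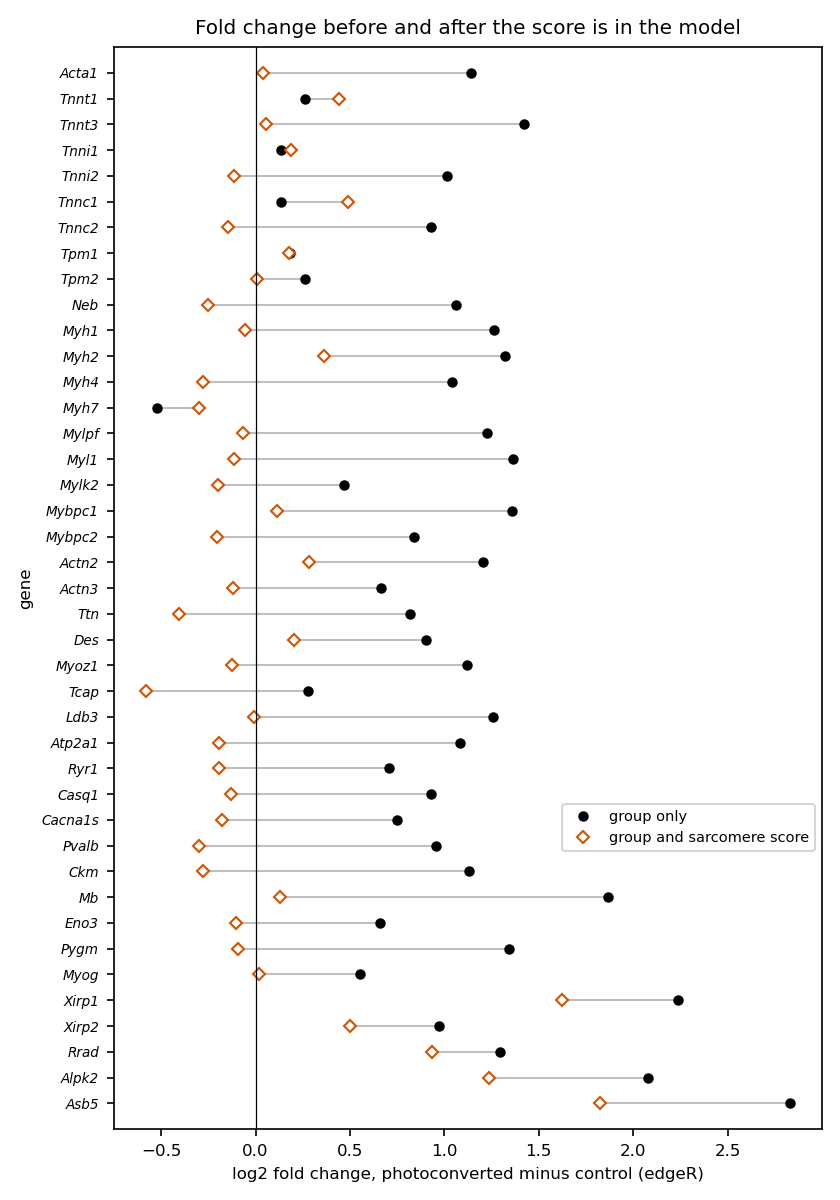
Log2 fold change of photoconverted over control tumors (edgeR) for the muscle genes, without and with the sarcomere score as a covariate. A grey line joins both values of a gene and is not an error bar. Sarcomere genes center near 0 with the covariate (median -0.09) because the score is made of them, and Xirp1, Rrad, Alpk2 and Asb5, which were listed for their group difference, lie between 0.94 and 1.82.

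The genes outside the set whose log2 CPM was most like that of the 4 genes over 8 tumors were picked from all other tested genes, so high coefficients were bound to occur. For Xirp1 they were Rnf225 (r = 0.979) and the small heat shock protein genes Hspb1 (0.960) and Cryab (0.959). For Rrad they were Hsph1, a chaperone of the HSP110 family (0.986), Thbs1, which encodes thrombospondin 1 (0.983), and Errfi1, a feedback inhibitor of EGFR (0.981). For Alpk2 they were the transcription factor gene Stat3 (0.979), Rnf225 (0.974) and Trim63, a muscle ubiquitin ligase (0.969). For Asb5 they were Plekhb1 (0.972), Ufd1l (0.956) and the cytoplasmic actin gene Actb (0.956). Trim63 is known chiefly from striated muscle, whereas Stat3, Actb, Thbs1 and Hsph1 are expressed in many cell types.

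A list of 12 genes held genes that striated muscle uses under strain together with small heat shock protein genes and their co-chaperone. Every one of its 12 genes had a higher fitted level in photoconverted tumors, against 46.8% of all genes (median log2 fold change 0.78, against -0.01). Of the 12, 5 had an unadjusted p under 0.05, against 2.23% of all genes, and none passed the adjusted edgeR threshold. Hspb1 had the smallest p of the list and a log2 fold change of 3.55 without overlap of the groups, whereas Hspb8, another small heat shock protein gene, and Flnc, the muscle filamin, had 0.27 and 0.15. Chosen after their values were seen, the chaperone genes Cryab and Bag3 had 1.62 and 1.18, while Hspb6 and Hspb7 had 0.62 and 0.93. The ankyrin repeat genes Ankrd1 and Ankrd23, which respond to stretch, both had 0.48, whereas Csrp3 and Fhl1 of the same list had 1.80 and 1.38. Chaperone genes and strain genes thus did not separate by fold change. The mean score of the list was 0.19, 0.74, 1.16 and 0.05 in photoconverted and -1.06, -0.69, -0.25 and -0.15 in control tumors, with every photoconverted tumor above every control tumor. Its r with the sarcomere score was 0.744 over 8 tumors and -0.05 without photoconverted tumors 3 and 2. Many genes of this list are also expressed outside muscle.

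Another list held 44 further genes of skeletal muscle fibers. Of the 40 tested, 38 had a higher fitted level in photoconverted tumors, against 46.8% of all genes (median log2 fold change 1.00, against -0.01). Of the 40, 6 had an unadjusted p under 0.05, against 2.23% of all genes, and none passed the adjusted edgeR threshold. The mean score of this list had r = 0.996 with the sarcomere score over 8 tumors and 0.987 without the 2 farthest tumors. Klhl40, which stabilizes thin filament proteins, had the smallest p of the list, with 4.39 ± 1.89 CPM in tumors given light and 1.46 ± 0.77 CPM in tumors without it (SD, n = 4 each) and no overlap, which held for 0.684% of all genes. The genes of this list with the highest level per kb, Pfkm, the muscle phosphofructokinase, and Cox6a2, a muscle subunit of cytochrome c oxidase, had log2 fold changes of -0.03 and 0.11. Cox6a2 was highest in both tumors numbered 4, so that single genes of the list departed from its mean score.

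Fast fiber genes were far above their slow counterparts in these tumors. Per kb of exon and as ratios of the means over 8 tumors, Tnnt3 was 19.7 times Tnnt1 (troponin T), Tnni2 56.9 times Tnni1 (troponin I), Tnnc2 50.5 times Tnnc1 (troponin C) and Myh4 128.9 times Myh7 (myosin heavy chain). The myosin binding protein C genes were closer, with Mybpc2 at 2.10 times Mybpc1. The slow light chains Myl2 and Myl3 were at or near 0, so that Mylpf over Myl2 and Myl1 over Myl3 gave no usable ratio per tumor. Counts of the other slow genes were low as well, apart from Mybpc1 with 61 to 945. The counts were 21 to 83 for Tnnt1, 9 to 39 for Tnni1, 5 to 23 for Tnnc1 and 7 to 57 for Myh7. The exact Poisson 95% interval of the lowest count was 4.12 to 17.1 for Tnni1 and 1.62 to 11.7 for Tnnc1, and it covers counting error only.

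The fast genes varied more from tumor to tumor than the slow genes. Over 8 tumors the highest level was 3.97 to 13.8 times the lowest for the 14 fast genes (median 9.02) and 2.16 to 8.93 times for the 5 slow genes tested (median 4.64). Mybpc1 accounted for the upper end of the slow genes: it measured 4.17 to 37.2 CPM and followed the sarcomere score with r = 0.993. In contrast, r with the score was -0.18 for Tnnt1, -0.12 for Tnni1, -0.33 for Tnnc1 and -0.32 for Myh7, while the 14 fast genes had values of 0.901 to 0.987. The troponin ratios were accordingly highest in photoconverted tumor 3, at 65.0 for Tnnt3 over Tnnt1, 206.8 for Tnni2 over Tnni1 and 210.2 for Tnnc2 over Tnnc1. The lowest values of these 3 ratios were 4.02 and 20.04 in photoconverted tumor 4 and 10.2 in control tumor 4.

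All 14 fast genes had a higher fitted level in photoconverted tumors (median log2 fold change 1.06), as did 4 of 5 slow genes (median 0.13), and no gene of either list passed the adjusted edgeR threshold. Slow Tnnt1, Tnni1 and Tnnc1 had log2 fold changes of 0.26, 0.13 and 0.13, and Myh7 had -0.52, which turned to 0.18 without control tumor 4. Mybpc1, the slow myosin binding protein C, had 1.36 (SE 0.55, edgeR adjusted p = 0.999), which is within the range of the fast genes (0.66 to 1.42). Without photoconverted tumor 3 Mybpc1 had 0.70. Like Myh7, Tnni1 and Tnnc1 changed sign with single tumors left out. The fast score minus the slow score was -0.06, 0.52, 1.59 and -0.998 in photoconverted tumors and 0.36, -0.07, 0.11 and -1.45 in control tumors. The groups overlapped and the difference of 0.53 was smaller than the SD within either group, and it was 0.08 without photoconverted tumor 3, 0.13 without control tumor 4 and 0.95 without photoconverted tumor 4. It was 0.05 when each score was the log2 of the summed CPM. For every pair of genes with a ratio in each tumor, the ratios overlapped between the groups.

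**Figure D4:**
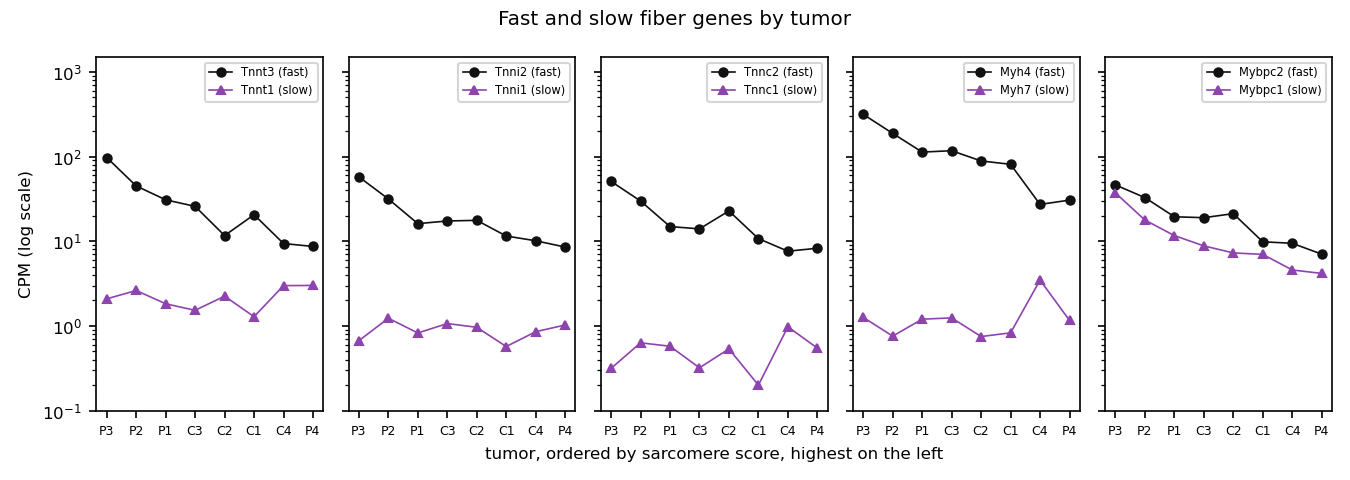
Levels of matched fast and slow genes (CPM, log axis) in each tumor, with tumors ordered by sarcomere score and the highest on the left. The pairs are Tnnt3 and Tnnt1, Tnni2 and Tnni1, Tnnc2 and Tnnc1, Myh4 and Myh7, and Mybpc2 and Mybpc1. The fast genes are highest in photoconverted tumor 3 and lowest in both tumors numbered 4, and the groups overlap.

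Among 4 myosin heavy chain genes, compared per kb, Myh4 made up 44.2 to 67.4% of the sum, Myh1 26.4 to 39.7%, Myh2 5.70 to 14.1% and Myh7 0.149 to 3.95%. The shares overlapped between the groups for all 4 genes, with Myh4 at 57.4 ± 9.19% in photoconverted and 58.4 ± 9.97% in control tumors (SD, n = 4 each). Myh7 was at 0.509 ± 0.501% and 1.31 ± 1.76% (SD, n = 4 each), and its highest share was in control tumor 4 (3.95%). The shares of Myh4 and Myh2 were 46.4% and 14.1% in photoconverted tumor 4 and 44.2% and 12.1% in control tumor 4, the tumors with the fewest muscle transcripts. Photoconverted tumor 3, with the most, came next in both, at 53.3% and 8.05%. The share of Myh7 was lowest in photoconverted tumors 3 and 2, at 0.149% and 0.186%, and highest in both tumors numbered 4.

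Markers of other tissues that could lie beside a tumor under the skin were measured in the same libraries. Of 8 adipocyte genes, 6 were tested and all 6 had a higher fitted level in photoconverted tumors (median log2 fold change 1.04), with Cidec at 1.06, Cfd at 0.89 and Fabp4 at 0.44. Their summed level was 17.5 to 71.6 CPM in photoconverted tumors against 15.3 to 37.6 CPM in control tumors, and their score had r = 0.901 with the sarcomere score and 0.664 without photoconverted tumors 3 and 2. Of 9 keratinocyte genes, 3 were tested and all 3 had a higher fitted level (Krt14 2.17 and Krt10 1.84). Their summed level was 2.25, 18.6, 22.7 and 2.39 CPM in photoconverted tumors and 1.54 to 3.91 CPM in control tumors, so that photoconverted tumors 2 and 3 stood apart, the same tumors that were highest for the sarcomere genes. Their score had r = 0.849 with the sarcomere score (rho 0.381) and -0.32 without these 2 tumors. Lor, a keratinocyte marker, had 0, 10, 25 and 0 counts in photoconverted tumors and none in any control tumor. The part of these tissues in the muscle results was not tested. With the log2 Rn45s share as a covariate, the median log2 fold change of the 22 sarcomere genes was 0.92 and those of Xirp1 and Rrad were 2.29 and 1.28. In that fit edgeR called 0 of 14468 genes. An unadjusted p under 0.05 was found for 1010 of these genes, against 322 without the covariate, and for 9 of 41 members in either fit.

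Smooth and cardiac muscle genes were measured as well. The summed level of 10 smooth muscle genes was 112.5 to 133.2 CPM in photoconverted tumors against 98.96 to 138.9 CPM in control tumors, with log2 fold changes of 0.04 for Acta2, -0.07 for Smtn and 1.504 for Cnn1, which did not overlap between the groups but stayed below 1 CPM. The 12 cardiac genes summed to 93.2 to 111.7 CPM and 65.0 to 114.9 CPM, and Ankrd1 alone gave 51.0 of the 100.7 CPM in photoconverted tumor 1. Their score had r = 0.322 with the sarcomere score, and that of the smooth muscle genes had 0.71. Without photoconverted tumors 3 and 2 these values were -0.13 and 0.14. The atrial peptide gene Nppa was at 0 in all but photoconverted tumor 3, whereas Nppb had a log2 fold change of 1.70 and Ankrd1, which skeletal muscle also expresses, 0.48.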

How the data were processed

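RNA of 8 tumors was analysed, 4 photoconverted and 4 control, each from 1 mouse. The deposited table held raw counts by gene symbol, as the authors made them, and the submitters' processing notes name HISAT2, featureCounts and the mm10 build without versions. As library kit the labels give SMARTER stranded total RNA, whereas the methods of the study give TruSeq. A second deposited table of normalized values was not used here.

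Counts were tested with edgeR 4.0.16 (TMM, filterByExpr by group, quasi-likelihood test, Benjamini-Hochberg adjustment over 14468 genes, threshold 0.05) in R 4.3.3. Log2 CPM used a prior count of 2, and lengths came from GENCODE exons on GRCm38. The procedure was also tested on simulated data. Total counts of 12576615 to 35844417 limit the precision of low genes such as Asb5. No 2 libraries of the same group agreed within sampling noise (smallest chi-square per degree of freedom 25.3). Libraries of different groups were not compared in this way.

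The members and lists were chosen with earlier results of these data known. Genes named were Xirp1, Xirp2, Rrad, Alpk2 and Asb5, the 3 genes of each role with the highest level per kb and the 1 with the smallest p, matched fast and slow pairs, the 3 genes nearest each of Xirp1, Rrad, Alpk2 and Asb5, and for further lists the 2 highest and the 1 with the smallest p. Pax7, Myod1, Nppa and Lor were named in addition as markers.

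Sample titles number the tumors 1 to 4 in each group, without saying what a number shares. Deviations of same-numbered tumors from their group means had r of 0.107 to 0.623 across genes (mean 0.433). Pairs with other numbers had -0.6 to 0.482 (mean -0.134), so some were as alike as same-numbered ones. Photoconverted tumor 3 had 0.482 with control tumor 1 and 0.407 with control tumor 3, all with Rn45s shares under 10%. Photoconverted tumor 4 had 0.346 with control tumor 2, both with shares over 10%. What the numbers share was not tested, and a fit with the number as a block was also made. Alternatives were DESeq2 1.42.0, its size factors, no filter, removal of Rn45s, the log2 Rn45s share as a covariate, the 5 tumors with an Rn45s share under 10%, a prior count of 0.5, other scores, and leaving out each tumor.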

Additional observations from a re-analysis of the deposited data

Results flagged for a closer look

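Within the groups of 4, 5 levels lay far from the other tumors of their group, with a gap to the nearest tumor that exceeded the 95% limit of Dixon's test. Of 86 groups examined, chance gives about 4.3 such values. Xirp2 was at 40.5 CPM in control tumor 3, against 12.57 CPM in the next control tumor. Rrad was at 20.6 CPM in control tumor 4, against 13.7 CPM in the next. Mb was at 3.31 CPM in control tumor 3, against 1.23 CPM in the next. In the downward direction, Myh1 was at 25.8 CPM in control tumor 4, against 47.4 CPM in the next, and Pvalb was at 1.71 CPM in the same tumor, against 6.54 CPM. Control tumor 4 was thus the lowest control tumor for these fast fiber genes and the highest for Rrad, and its Rn45s share was 23.2%.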

How the results depend on the processing

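The number of genes called was 0 in edgeR, 24 in DESeq2's Wald test, 42 in the 5 tumors with a lower Rn45s share, and 0 to 11 with single tumors left out (11 without photoconverted tumor 4). The number of members called was 0, 4 and 1 in these fits, and 0 whichever tumor was left out. With the replicate block no gene was called, and the median log2 fold change of the sarcomere genes was 0.82. It was 0.42 to 1.39 with single tumors left out. The cause of these shifts was not tested. Of 510 alternative fold changes of 34 named members, 497 kept their direction and side of the threshold, 5 passed it only in the alternative and 8 changed sign. The sign changed for Myh7 (0.057 in the 5 tumors, and -0.76 to 0.18 with single tumors left out), Tnni1 (-0.046 to 0.28), Tnnc1 (-0.20 to 0.72) and Tcap (-0.15 to 0.68). With the score as a covariate, Xirp2 ranged from -0.077 (without photoconverted tumor 4) to 1.24, while Xirp1 stayed within 1.34 to 2.00, Rrad 0.76 to 1.43, Alpk2 1.05 to 1.33 and Asb5 1.43 to 2.35 with single tumors left out. Groups of 4, an Rn45s share up to 35.7% and low counts of most slow genes, Alpk2 and Asb5 limit these values.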

Other observations

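Relatives of Rrad, Alpk2 and Asb5 were read from a list of 11 genes, of which 8 were tested. Of these 8, 7 had a higher fitted level in photoconverted tumors (median log2 fold change 0.57), none had an unadjusted p under 0.05 and none passed the adjusted edgeR threshold. The RGK family genes Gem and Rem1 had log2 fold changes of 0.55 and 0.65, and the alpha-kinase gene Alpk1 had 0.08. Their mean score followed the sarcomere score with r = 0.954 over 8 tumors and 0.987 without the 2 farthest tumors.

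Genes of regenerating or immature muscle were mostly low. Of 10 listed, 8 were in the table and 4 were tested, with 2 higher and 2 lower in photoconverted tumors, no gene past the adjusted edgeR threshold and 1 with an unadjusted p under 0.05 (2.23% of all genes). That gene was Myh8, the perinatal myosin heavy chain, at 2.26 to 19.2 CPM in photoconverted tumors against 2.01 to 3.66 CPM in control tumors (log2 fold change 1.48). Ncam1, which other cell types also express, had -0.21.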
